A study of Mus musculus with 36 samples.

Results

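Hedgehog signalling was followed through 9 genes, taken by name as the core of the pathway: the ligands Shh, Dhh and Ihh, the receptor Ptch1, the signal transducer Smo, the transcription factors Gli1, Gli2 and Gli3, and the ligand-binding inhibitor Hhip. All 9 were found, each by 1 gene identifier, among the 52636 genes of the count table. In this pathway a secreted ligand binds Ptch1 and ends its inhibition of Smo, and Smo then acts at the primary cilium to turn GLI proteins into activators of transcription. Ptch1, Gli1 and Hhip are themselves transcribed in response to the signal in many tissues, and the Ptch1 and Hhip proteins then limit it. In peripheral nerve, Dhh is known as the ligand that Schwann cells make, and it acts on the cells that build the perineurial sheath.

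RNA came from S100β-GFP;NG2-dsRed mice, in which the S100b promoter drives GFP and the promoter of Cspg4, the gene for NG2, drives dsRed. Cells of diaphragm, pectoralis, forelimb and hindlimb muscles were sorted on both colors into S100β-GFP+;NG2-dsRed+ perisynaptic Schwann cells (PSCs; NG2DsRed+/S100GFP+ in the labels), S100GFP+ cells (the S100β-GFP+ Schwann cells of the study) and NG2DsRed+ cells (NG2-dsRed+). Each library came from 1 juvenile mouse, and no group had a treatment or another genotype. The study gives P15 to P21 in its methods and P15 to P22 in its results. The labels of the 36 libraries print ages that start at P15 and end between P21 and P46. That upper age rises with library number, from P21 in library 1 to P46 in library 26 and all later ones. The upper ages of the labels may thus not be real, and the age of a single mouse is uncertain. Counts were analysed for 9 PSC, 8 S100GFP+ and 10 NG2DsRed+ libraries, with 5221655 to 9592875 counts on genes in each, and the others were not analysed here. After removing failed samples the study kept 7 S100GFP+ replicates, so 1 of the 8 used here may be one it left out, which its methods do not name. Levels are in CPM, counts per 1000000 on library sizes scaled with TMM factors.

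The sorted cells carried the transcripts that their reporters follow. Cspg4 was at 689 ± 132 CPM (SD, n = 9) in PSCs, 71.0 ± 42.3 CPM (n = 8) in S100GFP+ cells and 665 ± 138 CPM (n = 10) in NG2DsRed+ cells. S100b was at 255 ± 198, 29.4 ± 10.1 and 6.54 ± 4.90 CPM in the same order. Its log2 fold changes of 3.12 for PSCs over S100GFP+ cells and 5.28 over NG2DsRed+ cells became 1.67 and 4.22 with a term for the counts that Gm15564, Gm23935 and Lars2 took, and still passed (adjusted p = 4.67e-06 and 4.8e-14). Without S100GFP+ libraries 14, 17 and 22 the log2 fold change of Cspg4 for PSCs over S100GFP+ cells rose from 3.28 to 4.00, and that for S100GFP+ over NG2DsRed+ cells went from -3.23 to -3.92. The 7 Schwann lineage markers summed to 2004 to 2930 CPM in PSC libraries (median 2374) and to 61.0 to 415 CPM in S100GFP+ libraries (median 139). In NG2DsRed+ libraries they summed to 34.0 to 78.9 CPM (median 46.0). These 7 include S100b, whose promoter drives the GFP of the sort, so the sums are not independent of the sorting. The 6 markers of myelinating Schwann cells had medians of 2575, 2715 and 371 CPM in PSCs, S100GFP+ and NG2DsRed+ cells. PSC libraries thus had the most RNA of the lineage list, and the myelinating list had similar medians in PSCs and S100GFP+ cells.

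S100GFP+ libraries also held much RNA of cells other than Schwann cells. For this reason they are called by their reporter and not as Schwann cells. The study reports that microscopy and qPCR of GFP and dsRed showed its sorted groups to hold the intended cells alone. The 6 fibroblast markers, led by Col1a1, summed to 10117 to 22150 CPM in S100GFP+ libraries (median 15649). PSC libraries had 424 to 1746 CPM (median 678), again led by Col1a1, and NG2DsRed+ libraries 1272 to 12042 CPM (median 4502), led by Dcn. The 5 macrophage and leukocyte markers, led by Lyz2, had a median of 5751 CPM in S100GFP+, 128 CPM in PSC and 32.7 CPM in NG2DsRed+ libraries. NG2DsRed+ libraries had the most pericyte and smooth muscle RNA, at a median of 11585 CPM over 8 markers led by Rgs5, against 1064 CPM in PSC libraries, led by Cspg4, and 802 CPM in S100GFP+ libraries, led by Rgs5. Much of the PSC sum was Cspg4 (mean 689 CPM), whose promoter drives the dsRed of the sort. At an adjusted p under 0.05, Cspg4 was the 1 marker of the 8 that was higher in PSCs than in S100GFP+ cells. In the same comparison 5 were lower (75% passed, beside 46.9% of all tested genes), with a median log2 fold change of -1.55. NG2DsRed+ libraries also led in the 5 endothelial markers, of which Cdh5 was the most abundant. Their median was 2135 CPM, against 244 CPM in PSCs and 92.7 CPM (25.1 to 2004 CPM) in S100GFP+ cells. In bulk RNA, fewer cells of a type and less RNA per cell cannot be told apart, and this holds for each difference below.

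Other marker lists were also summed. Perineurial markers (6 genes) had medians of 92.6 CPM in PSC libraries, led by Itgb4, and 86.6 CPM in S100GFP+ libraries, led by Slc2a1. In NG2DsRed+ libraries their median was 161 CPM, led by Cldn1. At an adjusted p under 0.05, 3 were higher and 2 lower in PSCs than in S100GFP+ cells (83.3%, beside 46.9% of all tested genes). Against NG2DsRed+ cells, 0 were higher and 4 lower in PSCs (66.7% beside 44.0%). The counts were the same for S100GFP+ over NG2DsRed+ cells (66.7% beside 33.2%). Chondrocyte and tenocyte markers (7 genes) had medians of 13.5, 115 and 49.4 CPM. Satellite cell markers (5 genes, led by Vcam1) had medians of 26.7, 29.2 and 25.2 CPM, and muscle fibre markers (5 genes, led by Acta1) 419, 280 and 355 CPM. Melanocyte markers (5 genes) had medians of 97.6 CPM in PSCs, led by Dct, and 32.4 and 12.6 CPM in the other cells, led by Mitf. No marker of these lists was at 0 in all libraries of a cell type.

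Some libraries stood apart. PSC library 31 had 4441 CPM on the chondrocyte and tenocyte markers, where the other PSC libraries had 2.01 to 45.8 CPM. PSC library 18 had the fewest counts of its group (5334916) and a count on 14616 genes, the fewest of all libraries. S100GFP+ libraries 22, 17 and 14 had a count on 38568, 29103 and 25890 genes, more than any other library. The genes Gm15564, Gm23935 and Lars2 took 3.64% to 36.6% of the counts of PSC libraries (median 17.8%), 19.5% to 39.1% of S100GFP+ libraries (median 32.6%) and 12.5% to 40.0% of NG2DsRed+ libraries (median 30.4%). Some results change without the libraries named here, and the larger changes are given with the gene.

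Of the 9 genes, 7 had enough counts for a test and were fitted with edgeR, in one fit over 15330 genes, at an adjusted p under 0.05. Shh and Ihh had too few. Between PSCs and S100GFP+ cells, 4 of the 7 differed, where 46.9% of all tested genes did. Dhh and Ptch1 were higher in PSCs (22.9% of all genes were) and Gli2 and Hhip lower (24.1% were), and the ranges of Ptch1 and Hhip did not overlap (15.5% of all genes). Between PSCs and NG2DsRed+ cells 4 of 7 differed as well (44.0% of all genes). Dhh was higher in PSCs (20.8% of all genes were), Gli1, Gli2 and Hhip were lower (23.1% were), and the ranges of Hhip did not overlap (13.9% of all genes). Between S100GFP+ and NG2DsRed+ cells 3 of 7 differed (33.2% of all genes). Dhh was higher in S100GFP+ cells (18.0% of all genes were), Ptch1 and Gli1 were lower (15.2% were), and the ranges of Ptch1 did not overlap (11.6% of all genes). With 7 genes, these shares are close to the background and say nothing about the genes as a set. The 3 comparisons share libraries, so their results are not independent.

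**Figure D1:**
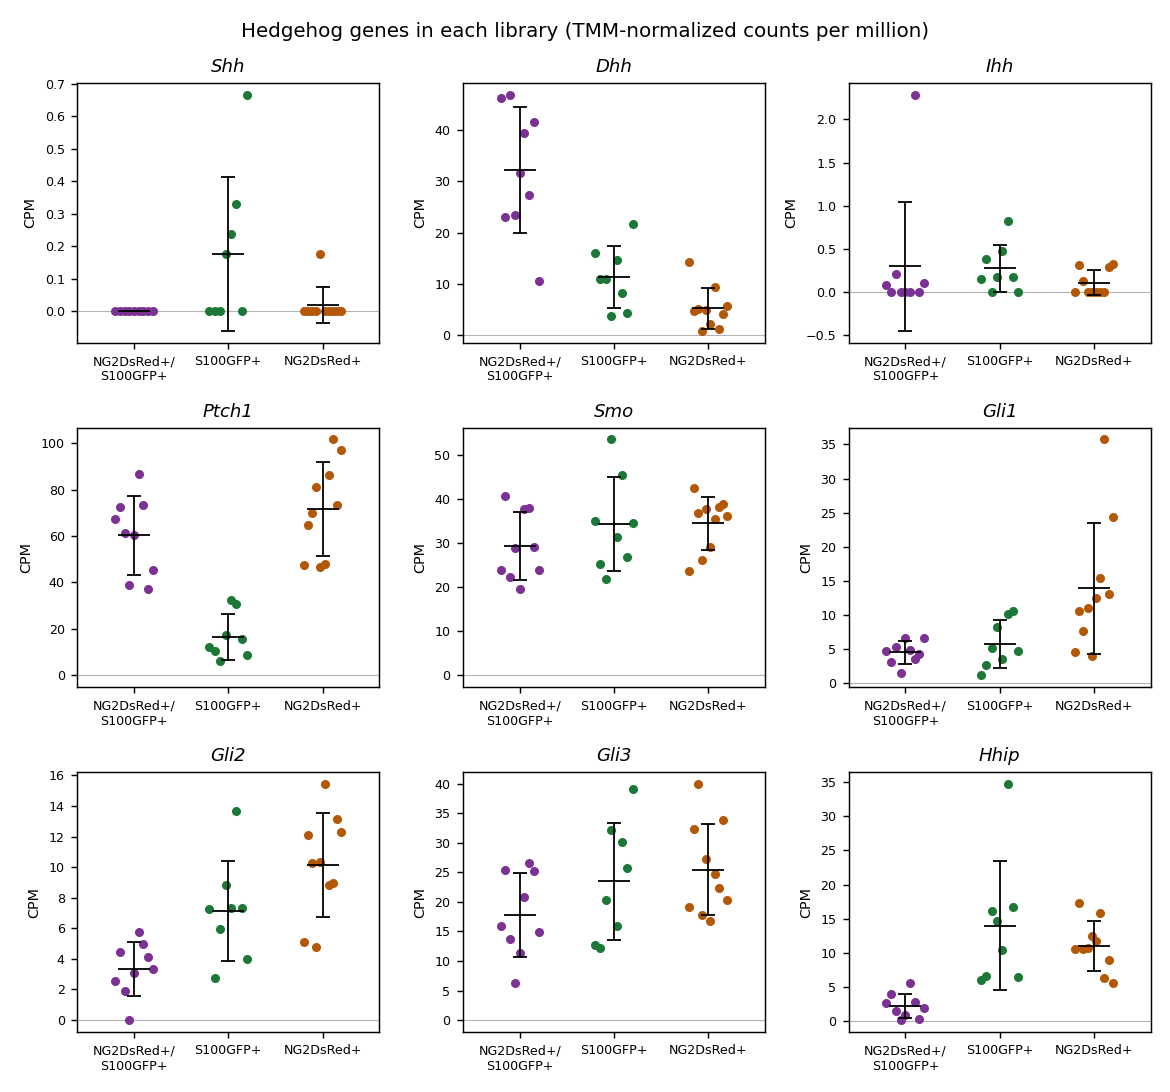
Level of each Hedgehog gene (vertical axis, CPM) in each library of the 3 sorted cell types (horizontal axis), with the mean and SD of each cell type as bars. Dhh was between 10.5 and 46.8 CPM in PSCs, Ptch1 was lower in every S100GFP+ library than in any other library, and Hhip was lower in every PSC library than in any other library.

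Among the ligands, Dhh was the one with enough counts for a test, and it was highest in PSCs. Dhh (ENSMUSG00000023000) lies at chr15:98891152-98898540 on the minus strand in GRCm38. Its level ran from 10.5 to 46.8 CPM in PSC libraries, with a median of 31.6 CPM. In S100GFP+ libraries it ran from 3.71 to 21.8 CPM (median 10.9), and in NG2DsRed+ libraries from 0.890 to 14.3 CPM (median 4.82). PSC library 36 was the lowest of its group and lay within the range of both other cell types, while the other 8 PSC libraries were above every library of either. The means were 32.2 ± 12.3 CPM (SD, n = 9), 11.3 ± 6.09 CPM (n = 8) and 5.24 ± 4.03 CPM (n = 10). Dhh was 2.85-fold higher in PSCs than in S100GFP+ cells (log2 fold change 1.51, SE 0.41, edgeR adjusted p = 0.00311). Against NG2DsRed+ cells it was 6.09-fold higher (log2 fold change 2.61, SE 0.39, edgeR adjusted p = 3.11e-06).

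Dhh was also 2.14-fold higher in S100GFP+ than in NG2DsRed+ cells (log2 fold change 1.10, SE 0.40, edgeR adjusted p = 0.0332), with 3 of 8 S100GFP+ libraries above all NG2DsRed+ libraries. This difference missed the threshold without S100GFP+ library 1, 17 or 33 or NG2DsRed+ library 13, 21 or 30, with a log2 fold change of 0.90 to 1.06 and an adjusted p of 0.0521 to 0.0968. With no filter on low counts it was 1.06 (adjusted p = 0.0643) and with limma-voom 0.97 (adjusted p = 0.0644). Dhh and Schwann RNA ranked alike in some libraries and not in others. S100GFP+ library 33 had 21.8 CPM of Dhh and 415 CPM on the Schwann lineage markers, the highest of its group in both, and library 14 had 3.71 and 61.0 CPM, the lowest in both. NG2DsRed+ library 2 had 14.3 CPM of Dhh, 78.9 CPM on the Schwann lineage markers and 1017 CPM on those of myelinating cells, the highest of its group in all 3. NG2DsRed+ library 28 had 1.22 CPM of Dhh and 70.1 CPM on the lineage markers, the second highest of its group, but 299 CPM on those of myelinating cells, the lowest. PSC libraries 12, 4 and 34, the highest in Dhh (46.8, 46.2 and 41.5 CPM), had the 3 lowest sums of PSCs on the lineage markers (2093, 2102 and 2004 CPM), while library 34 had the highest of PSCs on those of myelinating cells (3329 CPM). The part of this RNA in the level of Dhh was not tested. Dhh shares 546 exon bases with Rhebl1 on the same strand, which was at 3.90, 1.71 and 3.21 CPM in PSCs, S100GFP+ and NG2DsRed+ cells. Strand cannot separate the reads of Dhh and Rhebl1 in these bases. Dhh also shares 1107 exon bases with the antisense gene Gm49442, which was not among the genes counted. Neither the use of strand nor the handling of reads that fit both genes is given, so the effect of these overlaps on Dhh is uncertain.

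Shh and Ihh, the ligands best known from the limb, neural tube and gut and from growing cartilage, were near 0. Shh (chr5:28456815-28467256, minus strand) had 0 counts in all 9 PSC libraries, which allows up to 3 counts, or 0.0380 CPM over the group. S100GFP+ cells had 7 counts of Shh in 4 of 8 libraries (1 in library 14, 1 in library 17, 2 in library 22 and 3 in library 33), and NG2DsRed+ cells had 1 count in library 15. Over the group, S100GFP+ cells had 0.145 CPM of Shh (95% limits 0.0582 to 0.298 CPM), 3.81 times the floor of PSCs. Without library 33, 4 of the 7 counts remain, and the mean of S100GFP+ libraries goes from 0.176 to 0.133 CPM without 14, 17 and 22, so the size of this difference is uncertain. Both antisense partners of Shh had counts in the same group, 7 on Gm26894 and 14 on 9530036O11Rik in S100GFP+ cells, against 0 on either in PSCs. Such floors cover counting error alone, since PCR copies of a molecule are counted too.

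Ihh (chr1:74945315-74951672, minus strand) had 20 counts in PSCs, 13 in S100GFP+ cells and 7 in NG2DsRed+ cells. PSC library 31 held 16 of the 20, at 2.29 CPM, and the other 8 PSC libraries held 4, at no more than 0.209 CPM. Ihh is the ligand of chondrocytes before they enlarge, and library 31 was the PSC library with cartilage RNA. It had 3859 CPM of Col2a1, the collagen of cartilage, against 0.0956 to 14.0 CPM in the other PSC libraries. Acan was at 285 CPM (0 to 2.42 CPM in the others), Comp at 258 CPM (0 to 4.28 CPM) and Sox9 at 28.0 CPM (1.24 to 5.68 CPM). The tendon genes Scx and Tnmd were within the range of the other PSC libraries, at 2.15 and 8.15 CPM, and Mkx was at 0. The part of this cartilage RNA in the count of Ihh was not tested. In S100GFP+ cells 6 of 8 libraries had 1 to 5 counts of Ihh (mean 0.271 CPM, and 0.139 CPM without libraries 14, 17 and 22), and in NG2DsRed+ cells 4 of 10 had 1 or 2.

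Ptch1, the receptor, was high in PSCs and in NG2DsRed+ cells and low in S100GFP+ cells. Ptch1 (ENSMUSG00000021466) lies at chr13:63508328-63573598 on the minus strand. It ran from 37.2 to 86.9 CPM in PSC libraries (median 61.1) and from 46.8 to 102 CPM in NG2DsRed+ libraries (median 71.5). In S100GFP+ libraries it ran from 6.09 to 32.6 CPM (median 13.9), below each library of the other cells. The means were 60.3 ± 16.9 CPM (SD, n = 9) in PSCs, 71.6 ± 20.2 CPM (n = 10) in NG2DsRed+ cells and 16.7 ± 9.91 CPM (n = 8) in S100GFP+ cells. Ptch1 was 3.63-fold higher in PSCs than in S100GFP+ cells (log2 fold change 1.86, SE 0.28, edgeR adjusted p = 1.86e-06, all 9 PSC libraries above all 8). It was 4.31-fold lower in S100GFP+ than in NG2DsRed+ cells (log2 fold change -2.11, SE 0.27, edgeR adjusted p = 4.18e-07). PSCs and NG2DsRed+ cells gave a log2 fold change of -0.25 (SE 0.25, edgeR adjusted p = 0.444).

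The highest S100GFP+ libraries for Ptch1 were 17 (32.6 CPM), 22 (30.6 CPM) and 14 (17.5 CPM), the 3 with the most genes with a count. In the same order they had 1619, 1375 and 968 CPM on the pericyte and smooth muscle markers, against 237 to 844 CPM in the other 5 S100GFP+ libraries. On the endothelial markers they had 2004, 1084 and 543 CPM, against 25.1 to 100 CPM in the other 5. The part of this RNA in the level of Ptch1 was not tested. Without these libraries the mean of S100GFP+ cells was 10.6 CPM and the differences were larger, with a log2 fold change of 2.56 (adjusted p = 1.22e-08) for PSCs over S100GFP+ cells. For S100GFP+ over NG2DsRed+ cells it was then -2.78 (adjusted p = 4.16e-09).

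Smo, the transducer that Ptch1 holds back, passed in no comparison. It lies at chr6:29735503-29761365 on the plus strand and ran from 19.6 to 40.7 CPM in PSCs, 21.9 to 53.6 CPM in S100GFP+ cells and 23.7 to 42.5 CPM in NG2DsRed+ cells. The means were 29.4 ± 7.72 CPM (SD, n = 9), 34.3 ± 10.7 CPM (n = 8) and 34.5 ± 6.09 CPM (n = 10), with overlapping ranges. The log2 fold changes were -0.22 (SE 0.18, edgeR adjusted p = 0.32) for PSCs over S100GFP+ cells, -0.23 (SE 0.17, adjusted p = 0.277) over NG2DsRed+ cells and -0.01 (SE 0.17, adjusted p = 0.971) for S100GFP+ over NG2DsRed+ cells. The first became 0.08 (adjusted p = 0.76) without S100GFP+ libraries 14, 17 and 22, so its sign depends on these libraries.

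Hhip, a membrane protein that binds Hedgehog ligands and keeps them from Ptch1, was low in PSCs. Hhip (ENSMUSG00000064325) lies at chr8:79965851-80058006 on the minus strand. It ran from 0.175 to 5.64 CPM in PSC libraries (median 1.89), from 6.10 to 34.7 CPM in S100GFP+ libraries (median 12.5) and from 5.66 to 17.3 CPM in NG2DsRed+ libraries (median 10.7). The PSC range ended just under both others: the highest PSC library, 23, had 5.64 CPM and the lowest NG2DsRed+ library, 35, had 5.66 CPM. The means were 2.20 ± 1.78 CPM (SD, n = 9), 14.0 ± 9.48 CPM (n = 8) and 11.0 ± 3.66 CPM (n = 10). Hhip was 6.33-fold lower in PSCs than in S100GFP+ cells (log2 fold change -2.66, SE 0.45, edgeR adjusted p = 1.18e-05). It was 4.99-fold lower than in NG2DsRed+ cells (log2 fold change -2.32, SE 0.43, edgeR adjusted p = 5.31e-05). S100GFP+ and NG2DsRed+ cells gave 0.34 (SE 0.41, edgeR adjusted p = 0.567). S100GFP+ library 22 had the highest level, 34.7 CPM, and without libraries 14, 17 and 22 the last value became -0.10 (adjusted p = 0.902), while PSCs stayed lower than S100GFP+ cells (-2.19, adjusted p = 0.00037). PSC libraries 18 and 34 had 1 and 2 counts of Hhip.

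Gli1, the transcription factor whose own transcript rises most directly with the signal in other tissues, was highest in NG2DsRed+ cells. Gli1 (ENSMUSG00000025407) lies at chr10:127329882-127341974 on the minus strand. It ran from 1.58 to 6.69 CPM in PSC libraries (median 4.73), from 1.16 to 10.6 CPM in S100GFP+ libraries (median 4.89) and from 4.03 to 35.7 CPM in NG2DsRed+ libraries (median 11.8). The ranges overlapped in every comparison: NG2DsRed+ libraries 15 and 2 had 4.03 and 4.54 CPM, within the range of PSCs, and S100GFP+ libraries reached 10.6 CPM, above 4 of 10 NG2DsRed+ libraries. The means were 4.53 ± 1.64 CPM (SD, n = 9), 5.78 ± 3.53 CPM (n = 8) and 13.9 ± 9.64 CPM (n = 10). Gli1 was 3.05-fold lower in PSCs than in NG2DsRed+ cells (log2 fold change -1.61, SE 0.39, edgeR adjusted p = 0.00116, 3 of 9 PSC libraries below all 10). In S100GFP+ cells it was 2.40-fold lower than in NG2DsRed+ cells (log2 fold change -1.27, SE 0.40, edgeR adjusted p = 0.015), but without NG2DsRed+ library 28 this missed the threshold (-0.95, adjusted p = 0.0574). PSCs and S100GFP+ cells gave -0.34 (SE 0.41, edgeR adjusted p = 0.518), 0.05 (adjusted p = 0.944) with limma-voom and -0.008 (adjusted p = 0.992) without S100GFP+ libraries 14, 17 and 22.

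Within NG2DsRed+ cells, Gli1 was highest in the libraries with the most fibroblast RNA. Library 28 had 35.7 CPM of Gli1 and 12042 CPM on the fibroblast markers, and library 35 had 24.4 and 8872 CPM, the highest of the group in both. Libraries 2 and 15, lowest in Gli1, had 1272 and 1998 CPM, the lowest on those markers. S100GFP+ libraries had 10117 CPM or more on the same markers and a highest Gli1 level of 10.6 CPM. The part of this RNA in the level of Gli1 was not tested. Gli1 shares 62 exon bases with Arhgap9 on the opposite strand, a leukocyte gene that was at 23.9 CPM in S100GFP+ cells and at 0.0807 and 0.258 CPM in PSCs and NG2DsRed+ cells, so the S100GFP+ level of Gli1 is uncertain.

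Gli2, the main activator among GLI factors, was lowest in PSCs. Gli2 (ENSMUSG00000048402) lies at chr1:118834132-119053619 on the minus strand. It ran from 0 to 5.79 CPM in PSC libraries (median 3.37), from 2.75 to 13.7 CPM in S100GFP+ libraries (median 7.29) and from 4.81 to 15.4 CPM in NG2DsRed+ libraries (median 10.3). The value of 0 was in library 18, the PSC library with the fewest genes, and 7 of 9 PSC libraries were below all NG2DsRed+ libraries. The means were 3.36 ± 1.76 CPM (SD, n = 9), 7.14 ± 3.29 CPM (n = 8) and 10.1 ± 3.38 CPM (n = 10). Gli2 was 3.01-fold lower in PSCs than in NG2DsRed+ cells (log2 fold change -1.59, SE 0.38, edgeR adjusted p = 0.000963). Against S100GFP+ cells it was 2.12-fold lower (log2 fold change -1.08, SE 0.39, edgeR adjusted p = 0.024), and this call was not firm.

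The lower Gli2 of PSCs than of S100GFP+ cells missed the threshold without PSC library 12 (-0.97, adjusted p = 0.0528) and without S100GFP+ library 22 (-0.88, adjusted p = 0.0708). Without libraries 14, 17 and 22 the log2 fold change was -0.64 (adjusted p = 0.259). With a term for the counts that Gm15564, Gm23935 and Lars2 took it was -0.77 (adjusted p = 0.127), and in a fit of these cell types alone -1.10 (adjusted p = 0.0675). S100GFP+ and NG2DsRed+ cells gave -0.51 (SE 0.38, edgeR adjusted p = 0.334), and -0.91 (adjusted p = 0.129) without libraries 14, 17 and 22.

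Gli3, mostly a repressor in cells without ligand, passed in no comparison. It lies at chr13:15463235-15730026 on the plus strand and was at 17.8 ± 7.08 CPM (SD, n = 9) in PSCs, 23.5 ± 9.87 CPM (n = 8) in S100GFP+ cells and 25.5 ± 7.76 CPM (n = 10) in NG2DsRed+ cells. The ranges overlapped, at 6.31 to 26.6, 12.1 to 39.1 and 16.8 to 40.0 CPM, and library 18 was again the lowest PSC library. The log2 fold changes were -0.40 (SE 0.26, edgeR adjusted p = 0.222) for PSCs over S100GFP+ cells, -0.52 (SE 0.25, adjusted p = 0.0948) over NG2DsRed+ cells and -0.12 (SE 0.26, adjusted p = 0.769) for S100GFP+ over NG2DsRed+ cells. With limma-voom the second passed (-0.58, adjusted p = 0.0259).

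**Figure D2:**
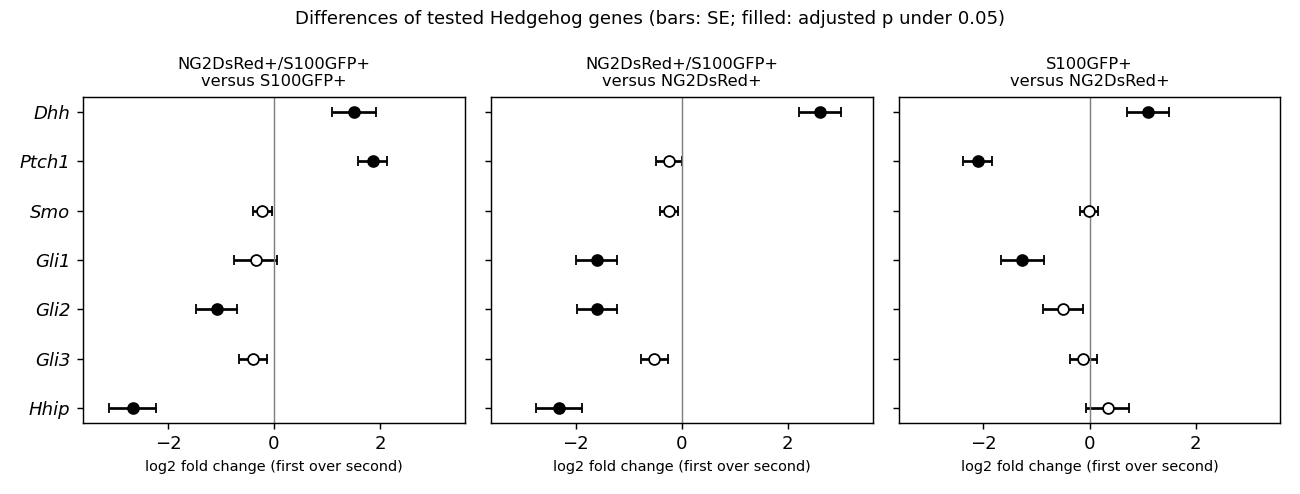
Log2 fold change (horizontal axis) of the 7 tested Hedgehog genes (vertical axis) in each comparison, with bars of 1 SE and filled points for an adjusted p under 0.05. Dhh lies to the right in all 3 comparisons, Ptch1 is at 1.86, -0.25 and -2.11, and Hhip is at -2.66, -2.32 and 0.34.

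In PSCs over S100GFP+ cells, the genes that respond to the signal elsewhere did not share a direction. Ptch1 was higher there, Hhip was lower and Gli1 did not pass. In PSCs over NG2DsRed+ cells, Gli1 and Hhip were lower. Ptch1 did not pass there (log2 fold change -0.25, SE 0.25, edgeR adjusted p = 0.444), so no direction is read from its sign. Against both other cell types, PSCs thus had more ligand RNA (Dhh), less RNA of the ligand-binding inhibitor (Hhip) and Smo at a level within the spread of the libraries.

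To compare genes with each other, counts were divided by the length of all exons of the gene (RPKM, per kilobase and 1000000 counts). The order depends on this length, which was 4399 bases for Dhh and 14185 bases for Ptch1. By CPM, Ptch1 was above Dhh in PSCs (means of 60.3 and 32.2 CPM). In PSCs, Dhh came first at 7.32 ± 2.79 RPKM, then Smo at 5.23 ± 1.37 and Ptch1 at 4.25 ± 1.19 RPKM. Dhh was above Smo in 6 of 9 libraries and Smo above Ptch1 in 6 of 9, so these neighbours did not differ beyond their spread. Ptch1 was above Gli3 (1.86 ± 0.74 RPKM) in 9 of 9, and Gli1, Gli2 and Hhip followed at 0.907, 0.489 and 0.242 RPKM, with Ihh and Shh last. In S100GFP+ cells Smo came first at 6.10 ± 1.90 RPKM, above Dhh (2.58 ± 1.38 RPKM) in 8 of 8 libraries. Dhh was above Gli3 (2.45 RPKM) in 5 of 8, and Hhip, Ptch1, Gli1 and Gli2 lay together, at 1.54, 1.18, 1.16 and 1.04 RPKM. In NG2DsRed+ cells Smo (6.14 ± 1.08 RPKM) was above Ptch1 (5.05 ± 1.42 RPKM) in 7 of 10 libraries and Ptch1 above Gli1 (2.78 ± 1.93 RPKM) in 10 of 10. Gli1 and Gli3 (2.66 RPKM) changed places from library to library, with Gli1 above in 5 of 10, and Gli2, Hhip and Dhh followed at 1.48, 1.21 and 1.19 RPKM. Hhip was above Dhh in 7 of 10.

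The rest of the pathway was followed through 69 genes, of which 63 were tested. Between PSCs and S100GFP+ cells 30 differed, 14 higher and 16 lower in PSCs, which is 47.6% against 46.9% of all tested genes. Between PSCs and NG2DsRed+ cells 30 differed (12 higher and 18 lower, 47.6% against 44.0%), and between S100GFP+ and NG2DsRed+ cells 19 (8 higher and 11 lower, 30.2% against 33.2%). The median log2 fold changes of the 63 were 0.07, -0.03 and -0.19, beside 0.04, 0.02 and -0.02 for all tested genes. As a whole these genes were near the background, and the lists below were not tested against each other. Disp2, Lrp2, Zic1, Zic2, Foxf2 and Foxl1 did not pass the filter.

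**Figure D3:**
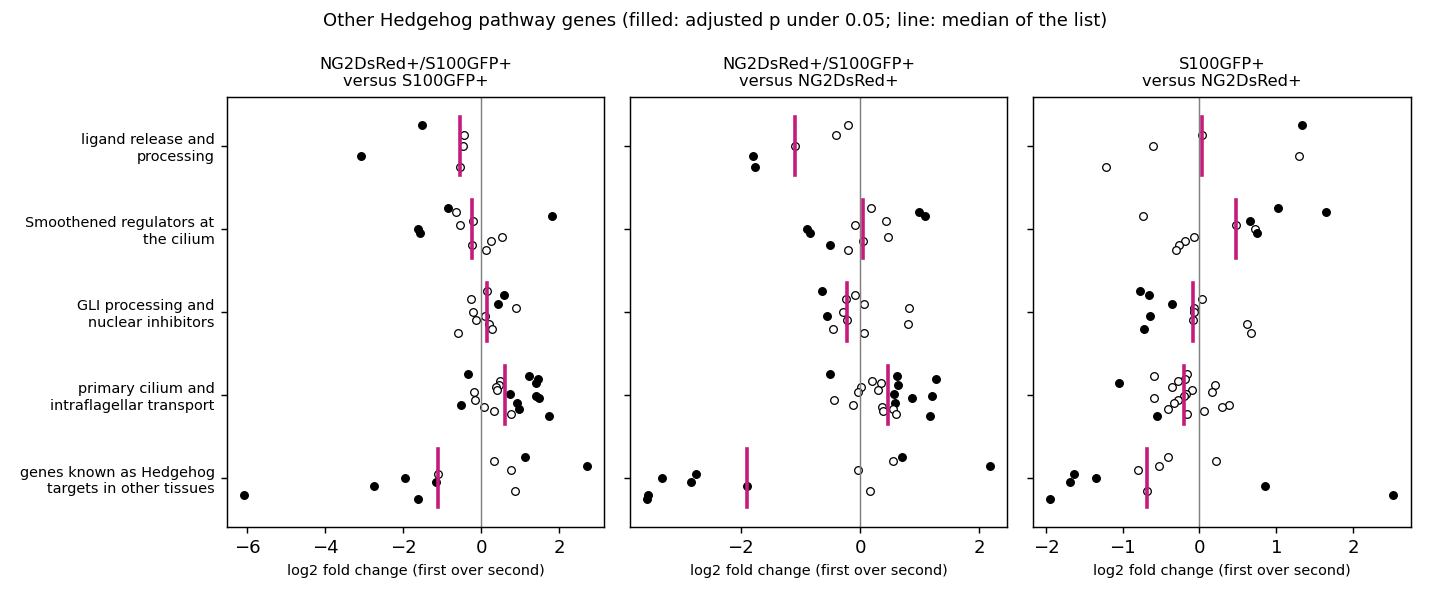
Log2 fold change (horizontal axis) of each tested gene of 5 lists of Hedgehog pathway genes (vertical axis, receptors not shown) in the 3 comparisons, filled for an adjusted p under 0.05, with a line at the median of each list. The cilium genes lie slightly to the right in both comparisons of PSCs, with medians of 0.61 and 0.47.

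Genes for the release of the ligand passed no more often than all tested genes, and those that passed in a comparison of PSCs were lower in them. Of 5 tested, 2 were lower and 0 higher against S100GFP+ cells (40%, beside 46.9% of all tested genes; median log2 fold change -0.55), and 2 lower and 0 higher against NG2DsRed+ cells (40% beside 44.0%; median -1.08). In S100GFP+ cells 1 was higher than in NG2DsRed+ cells (20% beside 33.2%; median 0.04). Disp1, which frees the lipid-bound ligand from the cell that makes it, was at 10.6 ± 4.20 CPM in PSCs, 30.9 ± 5.82 CPM in S100GFP+ cells and 12.3 ± 3.35 CPM in NG2DsRed+ cells. It was 2.89-fold lower in PSCs than in S100GFP+ cells (edgeR adjusted p = 2.09e-05), with ranges apart, and its log2 fold change against NG2DsRed+ cells was -0.20 (adjusted p = 0.552). Scube proteins carry the released ligand, and all 3 of their genes were low, with means of at most 6.15 CPM in any cell type. Scube2 was 8.54-fold lower in PSCs (0.701 ± 0.909 CPM) than in S100GFP+ cells (6.15 ± 4.90 CPM, edgeR adjusted p = 0.000654). Against NG2DsRed+ cells (2.50 ± 2.76 CPM) the log2 fold change of Scube2 was -1.80 (adjusted p = 0.0308), which missed the threshold without PSC library 12, 18, 20, 23 or 34 or NG2DsRed+ library 35 (-1.68 to -1.16, adjusted p 0.0511 to 0.146) and in a fit of these cell types alone (-1.77, adjusted p = 0.0507). Without NG2DsRed+ library 35, Scube2 was higher in S100GFP+ than in NG2DsRed+ cells (1.90, adjusted p = 0.0207, against 1.29 and 0.126 with it), and with limma-voom this passed over all libraries (1.61, adjusted p = 0.00495).

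Scube3 was lower in PSCs (1.74 ± 1.92 CPM) than in NG2DsRed+ cells (5.98 ± 4.97 CPM; log2 fold change -1.76, edgeR adjusted p = 0.0163), but not without NG2DsRed+ library 13 (-1.41, adjusted p = 0.0528) or with the term for Gm15564, Gm23935 and Lars2 (-1.64, adjusted p = 0.0597). Between S100GFP+ and NG2DsRed+ cells Scube3 passed only with limma-voom (-1.43, adjusted p = 0.0292) and in a fit of these cell types alone (-1.20, adjusted p = 0.0477). Scube1 depended on several libraries, among them PSC library 31, which had 12.4 CPM where the median PSC library had 0.574 CPM. With it, Scube1 passed in no comparison with edgeR (-0.47 and -1.08 for PSCs over S100GFP+ and NG2DsRed+ cells, adjusted p = 0.636 and 0.225). Without it, Scube1 was lower in PSCs than in either (-1.95, adjusted p = 0.0144, and -2.56, adjusted p = 0.00151). With limma-voom and library 31 kept, Scube1 passed between PSCs and NG2DsRed+ cells (-2.66, adjusted p = 0.000561) and between S100GFP+ and NG2DsRed+ cells (-1.73, adjusted p = 0.0126). Without S100GFP+ libraries 14, 17 and 22 the value for PSCs over S100GFP+ cells turned to 1.23 (adjusted p = 0.271), and with the term for Gm15564, Gm23935 and Lars2 to 0.30 (adjusted p = 0.76), so its direction is uncertain. Library 31 was the PSC library with cartilage RNA and most counts of Ihh.

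The co-receptors Cdon, Boc and Gas1, which bind the ligand together with Ptch1, were lower in PSCs in both comparisons, as were 24.1% and 23.1% of all tested genes. Gpc3, a glypican that binds the ligand, did not pass in either (log2 fold change 0.05 and 0.09, adjusted p = 0.899 and 0.818). Boc was at 6.28 ± 2.14 CPM in PSCs, 25.6 ± 8.86 CPM in S100GFP+ cells and 31.3 ± 11.3 CPM in NG2DsRed+ cells, 4.07-fold and 4.97-fold lower in PSCs (edgeR adjusted p = 2.68e-07 and 1.99e-08), with ranges apart in both. Gas1 was at 67.4 ± 11.0 CPM in PSCs, against 131 ± 39.0 and 160 ± 41.1 CPM, 1.94-fold and 2.38-fold lower (edgeR adjusted p = 4.94e-05 and 5.94e-07). Cdon was highest in S100GFP+ cells, at 89.8 ± 46.3 CPM against 6.88 ± 3.68 CPM in PSCs (12.9-fold lower in PSCs, edgeR adjusted p = 4.73e-09) and 13.9 ± 3.73 CPM in NG2DsRed+ cells. Cdon was also lower in PSCs than in NG2DsRed+ cells (adjusted p = 0.0218, 7 of 9 PSC libraries below all 10), which missed the threshold without PSC library 20 (-0.90, adjusted p = 0.0522) or 36 (-0.83, adjusted p = 0.0639), with no filter on low counts (-0.99, adjusted p = 0.0715) and in a fit of these cell types alone (-0.95, adjusted p = 0.0531). Fibroblast RNA was also lowest in PSCs, with all 6 of its markers lower in PSCs in both comparisons, and its part in the levels of these receptors was not tested.

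Regulators of Smo at the cilium were mixed. Of 11 tested, 1 was higher and 3 were lower in PSCs than in S100GFP+ cells (36.4%, beside 46.9% of all tested genes; median log2 fold change -0.23), and 2 were higher and 3 lower than in NG2DsRed+ cells (45.5% beside 44.0%; median 0.06). In S100GFP+ cells 4 were higher and 0 lower than in NG2DsRed+ cells (36.4% beside 33.2%; median 0.48). Efcab7, which holds the Evc complex at the cilium base, was at 5.93 ± 1.71 CPM in PSCs, 3.53-fold and 2.12-fold higher than in S100GFP+ and NG2DsRed+ cells (edgeR adjusted p = 5.3e-05 and 0.00434). Without S100GFP+ library 14, Efcab7 was also lower in S100GFP+ than in NG2DsRed+ cells (-0.91, adjusted p = 0.0428), as it was without 14, 17 and 22 together (-1.03, adjusted p = 0.0421). Grk2, a kinase that acts on active Smo, was 2.98-fold and 1.78-fold lower in PSCs (29.3 ± 14.8 CPM; edgeR adjusted p = 4.16e-06 and 0.00434). The arrestin gene Arrb1 was 1.80-fold lower in PSCs than in S100GFP+ cells (adjusted p = 0.00153), and Arrb2 was 1.99-fold higher in PSCs than in NG2DsRed+ cells (adjusted p = 0.0066). Arrb2 was lower in PSCs than in S100GFP+ cells when S100GFP+ library 17 or 22 was left out (-0.78 in each case, against -0.65 and adjusted p = 0.0792 with both). It was also lower without libraries 14, 17 and 22 (-1.02, adjusted p = 0.00498), with limma-voom (-0.74, adjusted p = 0.0345) and with the term for Gm15564, Gm23935 and Lars2 (-0.88, adjusted p = 0.0185). Grk2, Arrb1 and Arrb2 were all highest in S100GFP+ cells, which had the most macrophage and leukocyte RNA, whose part was not tested.

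Genes that process GLI proteins passed most often between S100GFP+ and NG2DsRed+ cells. Of 11 tested, 2 were higher and 0 lower in PSCs than in S100GFP+ cells (18.2%, beside 46.9% of all tested genes; median log2 fold change 0.14), and 2 lower and 0 higher than in NG2DsRed+ cells (18.2% beside 44.0%; median -0.22). In S100GFP+ cells 5 were lower and 0 higher than in NG2DsRed+ cells (45.5% beside 33.2%; median -0.09). Btrc, which marks GLI proteins for partial breakdown, was 1.55-fold lower in PSCs (16.1 ± 2.29 CPM) than in NG2DsRed+ cells (25.0 ± 3.72 CPM, edgeR adjusted p = 0.00032), with ranges apart. Prkacb, a catalytic subunit of the kinase that starts this step, was 1.46-fold lower in PSCs than in NG2DsRed+ cells (edgeR adjusted p = 0.000721). Both were also lower in S100GFP+ than in NG2DsRed+ cells (log2 fold change -0.78, adjusted p = 6.79e-05, for Btrc and -0.64, adjusted p = 0.000259, for Prkacb), and neither passed between PSCs and S100GFP+ cells (0.14 and 0.10). Gsk3b and Csnk1a1, the kinases that follow, were 1.34-fold and 1.48-fold higher in PSCs than in S100GFP+ cells (edgeR adjusted p = 0.00558 and 0.02). Csnk1a1 missed the threshold with limma-voom (0.37, adjusted p = 0.0572), with the term for Gm15564, Gm23935 and Lars2 (0.41, adjusted p = 0.0889) and without S100GFP+ libraries 14, 17 and 22 (0.53, adjusted p = 0.0715). Csnk1a1 was also lower in S100GFP+ than in NG2DsRed+ cells (-0.66, adjusted p = 0.00947). In S100GFP+ cells Gsk3b was 1.28-fold lower than in NG2DsRed+ cells (adjusted p = 0.0204), a difference that missed the threshold without S100GFP+ library 33 or NG2DsRed+ library 2, 28 or 35 (log2 fold change -0.32 to -0.29, adjusted p 0.0511 to 0.0796). It also missed it without S100GFP+ libraries 14, 17 and 22 (-0.36, adjusted p = 0.0732), with no filter (-0.40, adjusted p = 0.063) and with the size factors of DESeq2 (-0.30, adjusted p = 0.0574).

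Genes of the primary cilium were mostly higher in PSCs where they differed. Of 20 tested, 9 were higher and 2 lower in PSCs than in S100GFP+ cells (median log2 fold change 0.61, beside 0.04 for all genes), and 8 were higher and 1 lower than in NG2DsRed+ cells (median 0.47, beside 0.02). In all, 55% and 45% passed, near the 46.9% and 44.0% of all tested genes, of which 22.9% and 20.8% were higher in PSCs. Between S100GFP+ and NG2DsRed+ cells 0 were higher and 2 lower in S100GFP+ cells (10% beside 33.2%; median -0.20). Tulp3, which brings receptors into the cilium, was at 53.9 ± 13.4 CPM in PSCs, 16.2 ± 4.53 CPM in S100GFP+ cells and 23.8 ± 3.41 CPM in NG2DsRed+ cells. Each PSC library was above each other library for Tulp3, by 3.32-fold and 2.26-fold (edgeR adjusted p = 1.22e-09 and 3.61e-07). Ift80 and Ift88, of the transport complex that builds the cilium, were 2.64-fold and 2.77-fold higher in PSCs than in S100GFP+ cells (edgeR adjusted p = 3.76e-06 and 2.38e-05). Against NG2DsRed+ cells they were 2.29-fold and 1.84-fold higher (edgeR adjusted p = 1.38e-05 and 0.00297). Among PSC libraries, library 18 was the lowest for Tulp3, Ift80 and Ift88 (42.4, 10.3 and 4.73 CPM) and the highest for Ift122 (44.7 CPM). PSC libraries also had the lowest median share of counts on Gm15564, Gm23935 and Lars2. It was 17.8%, against 32.6% in S100GFP+ and 30.4% in NG2DsRed+ libraries. Ift88 was also lower in S100GFP+ than in NG2DsRed+ cells when PSC library 18 or S100GFP+ library 22 was left out, with limma-voom (-0.75, adjusted p = 0.00516) and in a fit of these cell types alone (-0.57, adjusted p = 0.0394), and its log2 fold change in the fit of all libraries was -0.59 (adjusted p = 0.0694). Ift122, of the complex for transport back from the tip, was 2.64-fold higher in PSCs than in S100GFP+ cells (edgeR adjusted p = 9.8e-07), with a log2 fold change of 0.35 against NG2DsRed+ cells (adjusted p = 0.116) that passed without PSC library 36 or NG2DsRed+ library 35 and with limma-voom (0.39, adjusted p = 0.0232).

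Genes known as Hedgehog targets in other tissues were more often lower than higher in PSCs where they passed. Of 11 tested, 2 were higher and 5 lower in PSCs than in S100GFP+ cells (63.6%, beside 46.9% of all tested genes; median log2 fold change -1.12), and 2 were higher and 6 lower than in NG2DsRed+ cells (72.7% beside 44.0%; median -1.90). In S100GFP+ cells 2 were higher and 4 lower than in NG2DsRed+ cells (54.5% beside 33.2%; median -0.69). By direction, 22.9% of all tested genes were higher and 24.1% lower in PSCs than in S100GFP+ cells. The shares were 20.8% and 23.1% for PSCs over NG2DsRed+ cells, and 18.0% and 15.2% for S100GFP+ over NG2DsRed+ cells. Osr1, a transcription factor of connective tissue, was at 0.847 ± 0.674 CPM in PSCs, 57.8 ± 30.8 CPM in S100GFP+ cells and 10.0 ± 3.23 CPM in NG2DsRed+ cells, 67.6-fold and 11.8-fold lower in PSCs (edgeR adjusted p = 5.08e-12 and 4.55e-08). Snai1, a transcriptional repressor, was highest in NG2DsRed+ cells, at 35.2 ± 7.84 CPM against 2.99 ± 2.00 CPM in PSCs (11.8-fold lower in PSCs, edgeR adjusted p = 3.31e-10). Igfbp6, which binds insulin-like growth factors, was at 71.8 ± 23.0 CPM in PSCs, against 484 ± 202 and 268 ± 143 CPM, 6.75-fold and 3.73-fold lower (edgeR adjusted p = 5.05e-09 and 1.62e-06). Its difference between S100GFP+ and NG2DsRed+ cells (0.86, adjusted p = 0.0146) missed the threshold without S100GFP+ library 14 (0.67, adjusted p = 0.0544) and without 14, 17 and 22 together (0.73, adjusted p = 0.0646). Ccnd1, a cyclin of the G1 phase, went the other way, at 93.4 ± 32.2 CPM in PSCs against 14.3 ± 8.60 and 20.6 ± 8.17 CPM, with each PSC library above each other library (6.56-fold and 4.54-fold higher, edgeR adjusted p = 9.15e-09 and 8.84e-08). Without S100GFP+ library 33, Ccnd1 was also lower in S100GFP+ than in NG2DsRed+ cells (-0.86, adjusted p = 0.00853, against -0.53 and 0.146 with it). Osr1 and Igfbp6 were highest where fibroblast markers were, and the part of fibroblast RNA was not tested.

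For each tested Hedgehog gene, the 3 genes with the most similar pattern were taken by Pearson's r of log2 CPM over the 27 libraries. The libraries fall into 3 cell types, so r takes in differences between cell types as well as between libraries. Dhh was most like Kcnj10 (0.90), Sorcs1 (0.89) and Kcna1 (0.88), all highest in PSCs. Ptch1 was most like Cspg4 (0.93), whose promoter drives the dsRed of the sort, followed by Tril and Amotl1 (both 0.92). Both Cspg4 and Ptch1 were high in PSCs and NG2DsRed+ cells and low in S100GFP+ cells. Hhip was most like Cyb561 and Mcc (both 0.92) and Gbp5 (0.91), all lowest in PSCs. For Gli1 they were Shisa3 and Smoc2 (both 0.84) and Gm38340 (0.81), and Smoc2 was at 50.3, 64.9 and 368 CPM in PSCs, S100GFP+ and NG2DsRed+ cells. Gli2 was most like Dchs1 and Tnks2 (both 0.92) and Slco2b1 (0.91), Gli3 like Glis2, Abl1 (both 0.85) and Dnajc10 (0.82), and Smo like Copg1 (0.79), Cdr2l (0.77) and Cdk16 (0.76).

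GLI factors bind the letters GACCACCCA, and promoters from RefSeq (GRCm38.p6) were searched for them on both strands. Windows were 300 bases long, 250 before and 50 after the start of the gene. Of the 9 Hedgehog genes, 7 had a promoter in the set, and Shh and Gli1 did not. The exact letters were in 0 of the 7 windows and in 83 of all 32851 (0.253%). With 1 mismatch allowed they were in 0 of the 7 and in 2214 of 32851 (6.74%), which says only that the letters are not in these windows. The 250 bases before the start are printed for Dhh, Ptch1 and Hhip, the ligand, the receptor and the inhibitor that differed between PSCs and another cell type, 5′ to 3′ on the minus strand and all in lower case. They are at chr15:98898541-98898790 for Dhh, chr13:63565736-63565985 for Ptch1 and chr8:80058009-80058258 for Hhip. That of Ptch1 lies inside the gene, and those of Dhh and Hhip lie upstream of the gene.
Dhh: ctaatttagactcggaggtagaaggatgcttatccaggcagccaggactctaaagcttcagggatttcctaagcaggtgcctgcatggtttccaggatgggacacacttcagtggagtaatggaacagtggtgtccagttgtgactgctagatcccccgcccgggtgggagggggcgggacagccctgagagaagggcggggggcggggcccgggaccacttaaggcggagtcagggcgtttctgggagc
Ptch1: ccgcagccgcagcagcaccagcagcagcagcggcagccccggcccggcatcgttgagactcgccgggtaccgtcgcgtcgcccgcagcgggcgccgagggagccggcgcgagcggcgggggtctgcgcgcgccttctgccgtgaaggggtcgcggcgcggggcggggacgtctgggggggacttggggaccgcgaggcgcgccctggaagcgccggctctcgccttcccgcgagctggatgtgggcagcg
Hhip: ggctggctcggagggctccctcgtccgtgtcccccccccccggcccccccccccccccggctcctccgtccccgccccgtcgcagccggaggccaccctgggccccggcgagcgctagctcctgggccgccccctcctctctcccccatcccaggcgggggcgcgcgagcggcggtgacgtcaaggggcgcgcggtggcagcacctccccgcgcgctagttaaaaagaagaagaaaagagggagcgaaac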

How the data were processed

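The deposited table holds counts of reads per gene that the authors made from trimmed reads with HISAT2 and HTSeq on GRCm38, per the labels and methods. The sources used here give neither versions nor the use of strand. Columns were matched to samples by library number, and 9 libraries of the labels were not analysed here. None of 109 pairs of libraries of a cell type were identical, and each differed by more than sampling noise (lowest chi-square divided by its degrees of freedom, 8.10). With one mouse per library, p-values measure the spread between mice, and libraries of different cell types may share a mouse, which was not modelled.

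In R 4.3.3, edgeR 4.0.16 was run with TMM, filterByExpr (minimum count 10), one quasi-likelihood fit of 3 cell types over 15330 genes and Benjamini-Hochberg adjustment at 0.05 over all of them, after tests on simulated data. Log2 CPM used a prior count of 2. RPKM were computed from the counts and the exon lengths of GENCODE M21, which has 99.72% of the identifiers. The Hedgehog genes and gene lists were chosen with earlier results of these data known. Named were all Hedgehog genes, Cspg4, S100b, the 4 genes of each pathway list with the smallest adjusted p in any comparison, the genes with the most similar pattern, the most abundant markers, and genes that overlap a Hedgehog gene. By this rule 3 further genes are not reported here by themselves, and totals over lists include them. Acan, Comp, Sox9, Scx, Tnmd, Mkx, Smoc2 and Gpc3 were chosen for naming with their values in view. Alternatives were DESeq2 1.42.0, its size factors in edgeR, limma-voom (limma 3.58.1) with sample weights, no filter or a mean count of 5, fits of the cell types compared alone, a term for the counts that Gm15564, Gm23935 and Lars2 took, a 2-fold or an unadjusted threshold, and leaving out libraries.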

Additional observations from a re-analysis of the deposited data

Results flagged for a closer look

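Within each cell type, the highest or lowest library of each Hedgehog gene was compared with the spread of the rest. Of 26 groups of values examined, 3 had a library far from the others, where chance gives about 1 in 20 for values that are not near 0. Ihh in PSC library 31 was at 2.29 CPM (16 counts), and the next PSC library was at 0.209 CPM. Hhip in S100GFP+ library 22 was at 34.7 CPM (211 counts), and the next library of that group was at 16.7 CPM. Without library 22 Hhip was still lower in PSCs than in S100GFP+ cells (log2 fold change -2.32, edgeR adjusted p = 5.3e-05). Shh in NG2DsRed+ library 15 was at 0.175 CPM, which is 1 count where the other 9 libraries had 0, and a single count always stands apart in such a group.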

How the results depend on the processing

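Of 96 log2 fold changes (32 named genes in 3 comparisons), 65 passed in the fit reported above. Of these, 57 passed in all 8 processing alternatives, 9 were lost in any alternative or without any 1 library, and 0 changed sign. Of the 31 that had not passed, 9 passed in at least 1 processing alternative. Over all fits at an adjusted p under 0.05, the Hedgehog genes past the threshold numbered 3 to 5 between PSCs and S100GFP+ cells, 4 to 5 between PSCs and NG2DsRed+ cells and 2 to 3 between S100GFP+ and NG2DsRed+ cells. With a change of at least 2-fold also asked for, the other pathway genes past the threshold fell to 16 between PSCs and NG2DsRed+ cells (30 without it) and to 10 between S100GFP+ and NG2DsRed+ cells (19 without it), since small changes drop out.

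Values that had not passed changed sign as follows, and the cause was not tested. For PSCs over S100GFP+ cells, Smo became 0.0638 and Scube1 0.297 with the term for Gm15564, Gm23935 and Lars2, and 0.0786 and 1.23 without libraries 14, 17 and 22. Gli1 became 0.0475 with limma-voom. For PSCs over NG2DsRed+ cells, Disp1 became 0.0025 with limma-voom and Gsk3b -0.0376 with that term. For S100GFP+ over NG2DsRed+ cells, Smo became 0.0486 with DESeq2, 0.0501 with its size factors in edgeR and 0.0037 in a fit of these cell types alone, and Hhip -0.099 without libraries 14, 17 and 22. Leaving out 1 library at a time gave -0.134 to 0.0942 for Smo between S100GFP+ and NG2DsRed+ cells. Between PSCs and NG2DsRed+ cells it gave -0.0193 to 0.160 for Cspg4, -0.268 to 0.0243 for Disp1 and -0.219 to 0.0138 for Csnk1a1. Without libraries 14, 17 and 22 the median log2 fold change of all genes between PSCs and S100GFP+ cells moved from 0.04 to 0.16, so values of that fit are relative to it. No paired analysis was run, because the labels do not say which libraries came from the same mouse, and cell types may share mice. Genes at a few CPM, such as Gli2, Hhip and Scube2 in PSCs, rest on few counts per library.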
